A study of Mus musculus with 18 samples.

Results

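Bone-marrow-derived macrophages (BMDMs) were profiled by ATAC-seq, in which the transposase Tn5 cuts accessible DNA and leaves sequencing adapters there. The regions described here are the strongest distal summits of the pooled ATAC-seq catalog, where a summit is the high point of a peak and strong means a high deposited score. They were chosen by the deposited summit score, so the score and the shape of the peaks describe the choice and are no finding. For each extended region on chromosomes 1 to 19 the summit with the highest score was kept, and a summit was included if its score was 1786 or more, if it lay over 1000 bp from every transcript start of GENCODE M21 on mm10, and if its extended region held fewer than 5 reference peaks. This gave 1099 summits, or 2.52% of the 43540 distal summits in extended regions with fewer than 5 peaks and 1.84% of all 59617 extended regions.

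The BMDMs were grown from bone marrow of wild type male C57BL/6 mice aged 6 to 8 weeks, and every culture received 1 h of DMSO, the vehicle of the inhibitor experiments, before any stimulus. There were 9 groups of 2 libraries each, namely untreated cells, cells given LPS at 10 ng/mL for 30 min, 1 h, 2 h or 4 h, and cells given IL-4 (IL4 in the labels) at 10 ng/mL for the same times. LPS is a bacterial ligand of TLR4, and IL-4 is the cytokine of alternative macrophage activation. The deposited tables are 1 catalog built over all 18 libraries and hold no value per library, so stimuli, times and replicates were not analysed here, and it cannot be told from these tables whether a summit was open in all groups or in some. The number of reads behind a score is unknown.

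Distal accessible regions of macrophages are mostly enhancers, stretches of DNA where transcription factors bind and from which they act on promoters at a distance. PU.1, an ETS factor that can open closed chromatin, sets up much of the macrophage enhancer repertoire together with C/EBP factors, AP-1 factors (dimers of FOS, JUN and ATF proteins) and RUNX factors. Factors activated by stimuli, such as NF-kB and IRF factors after LPS and STAT6 after IL-4, bind largely within that repertoire. CTCF is a zinc-finger protein found at chromatin loop anchors and insulators in nearly all cell types, and its sites make up another class of distal accessible regions.

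The windows around a few of these summits show the sequences the results below turn on. The first 4 are among the 15 highest scored summits, of which 5 held an AP-1 site, a PU.1/ETS site or both, and the others lay near listed genes of the responses to IL-4 and LPS, of macrophage identity and of the lysosome and were picked from these because they held a marked site. Each line gives 201 bp of the plus strand of mm10 centred on the summit, read from the GRCm38.p6 assembly, and capitals mark sites of PU.1/ETS (GAGGAAGT), AP-1 (TGACTCA), C/EBP (TTGCNNAA), RUNX (AACCACA) and NF-kB on either strand.
Abr intron, chr11:76587459-76587659: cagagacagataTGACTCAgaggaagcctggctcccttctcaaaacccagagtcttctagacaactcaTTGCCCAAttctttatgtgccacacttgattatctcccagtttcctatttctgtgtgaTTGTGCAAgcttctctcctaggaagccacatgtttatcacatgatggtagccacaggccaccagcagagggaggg
Zeb2 intron, chr2:45049379-45049579: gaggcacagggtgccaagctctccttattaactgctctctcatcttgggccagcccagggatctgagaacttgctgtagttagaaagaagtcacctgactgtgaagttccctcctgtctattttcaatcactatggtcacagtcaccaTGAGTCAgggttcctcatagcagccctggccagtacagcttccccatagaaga
Ptprj intron, chr2:90504854-90505054: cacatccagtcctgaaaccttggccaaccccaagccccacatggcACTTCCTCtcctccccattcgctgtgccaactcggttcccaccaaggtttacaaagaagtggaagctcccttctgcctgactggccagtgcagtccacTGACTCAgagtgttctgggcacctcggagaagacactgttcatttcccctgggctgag
Near Nlrp1b, chr11:71251457-71251657: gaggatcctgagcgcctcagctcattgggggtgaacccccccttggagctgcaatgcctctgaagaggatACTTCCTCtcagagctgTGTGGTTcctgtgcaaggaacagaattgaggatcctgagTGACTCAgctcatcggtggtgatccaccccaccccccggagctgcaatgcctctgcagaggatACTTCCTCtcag
Near Socs1, chr16:10754614-10754814: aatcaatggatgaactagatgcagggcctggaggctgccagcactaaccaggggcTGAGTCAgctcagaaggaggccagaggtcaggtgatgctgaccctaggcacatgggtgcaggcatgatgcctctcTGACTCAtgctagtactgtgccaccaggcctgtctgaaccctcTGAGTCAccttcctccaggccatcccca
Near Socs3, chr11:117977934-117978134: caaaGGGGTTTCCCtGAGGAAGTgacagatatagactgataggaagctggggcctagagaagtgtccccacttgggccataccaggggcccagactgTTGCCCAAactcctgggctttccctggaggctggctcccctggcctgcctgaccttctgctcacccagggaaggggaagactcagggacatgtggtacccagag
Il4ra intron, chr7:125555550-125555750: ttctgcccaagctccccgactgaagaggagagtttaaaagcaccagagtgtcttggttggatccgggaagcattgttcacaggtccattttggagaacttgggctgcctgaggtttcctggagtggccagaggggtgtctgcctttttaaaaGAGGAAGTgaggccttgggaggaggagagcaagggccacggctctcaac
Cx3cr1 intron, chr9:120058790-120058990: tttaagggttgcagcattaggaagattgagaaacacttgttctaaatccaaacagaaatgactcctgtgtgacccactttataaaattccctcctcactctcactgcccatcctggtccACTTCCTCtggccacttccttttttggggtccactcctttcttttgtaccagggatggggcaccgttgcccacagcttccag
Hexa intron, chr9:59544767-59544967: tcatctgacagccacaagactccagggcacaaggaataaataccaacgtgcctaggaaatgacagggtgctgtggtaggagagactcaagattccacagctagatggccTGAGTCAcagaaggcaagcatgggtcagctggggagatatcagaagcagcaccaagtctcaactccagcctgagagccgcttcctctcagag

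In the Abr window the AP-1 site lay 85 bp left of the summit, with C/EBP sites 28.5 bp to the left and 29.5 bp to the right of the summit. In the Zeb2 window the AP-1 site lay 51 bp to the right. Ptprj, which encodes a receptor tyrosine phosphatase, held a PU.1/ETS site 51.5 bp to the left and an AP-1 site 46 bp to the right of the summit. The window near Nlrp1b, an inflammasome sensor gene, held 2 PU.1/ETS sites, 26.5 bp to the left and 92.5 bp to the right, with a RUNX site 10 bp from the summit and an AP-1 site 29 bp from it. In these 4 windows the nearest PU.1/ETS or AP-1 site was thus 26.5 bp or more from the summit, and the distances over all summits are given below.

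The summit near Socs1, which encodes a feedback inhibitor of cytokine signaling, had 3 AP-1 sites within 100 bp and was 1 of 7 windows with at least 3. The window near Socs3, another inhibitor of that family, held an NF-kB site and a PU.1/ETS site close together, 91.5 and 81.5 bp from the summit, and a C/EBP site at the summit. Single PU.1/ETS sites stood in introns of Il4ra, the IL-4 receptor alpha chain, and of Cx3cr1, the fractalkine receptor, at 55.5 and 22.5 bp. The intron of Hexa, a lysosomal hexosaminidase subunit, had an AP-1 site 12 bp from the summit.

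Scores of the strongest distal summits took 42 distinct values between 1786 and 2552, with a median of 1890 and a mean of 1916 ± 107 (SD, n = 1099), against a median of 706 for the other 42441 distal summits. At the limit itself, 83 summits had the score 1786 and 83 distal summits the next lower value, 1773. Just inside stood summits near Scn10a, near the pseudogene Gm2950 and in an intron of Myo1e, a class I myosin, and just outside stood summits in an intron of Mfsd6, near Arpc2, a subunit of the actin-nucleating Arp2/3 complex, and near Tex44. The reference peaks under the strongest distal summits had a median width of 412 bp (quartiles 359 and 469) against 218 bp at other distal summits and 494 bp at the 2783 promoter summits past the same score. These widths come from the same calls as the score.

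The highest score, 2552, stood alone in an intron of Fhad1 (peak chr4:141993887-141994527), where 84.6% of the 201 bp around the summit was repeat-masked and none of the 24 motifs searched was found. The second, 2349, lay in an intron of Itpkb, an inositol trisphosphate kinase gene (chr1:180387364-180387858), with a CRE site (TGACGTCA), the motif of CREB and ATF factors. The third, 2323, lay 8670 bp from the start of Chmp6, a component of the membrane-remodeling ESCRT-III complex. Introns of Abr, a RAC and CDC42 regulator, and Zeb2, a zinc-finger repressor active in macrophages and dendritic cells, followed with 2310 each, and the Abr peak shared its extended region with 3 other reference peaks. The next were in an intron of Mrps27 and near Tob2, both at 2271, and near Glis2 at 2258.

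Introns of Ptprj and Gse1 shared the score 2245. The summit near Nlrp1b had 2232, and that near Zfp395 and that in an intron of Zfp710 had 2219. The last of the highest 15, at 2206, lay 18515 bp from the start of Fos, an AP-1 subunit gene, and held none of the motifs searched. The summits ranked 16 to 19 had the same score, so the cut at 15 fell within a tie. GC content varied widely among these 15 windows, from 47.8% at Abr to 72.6% near Zfp395. In all 15, the central 38 bases occurred once in the genome. Several genes held more than 1 of the strongest summits within their bodies, among them Snx29 with 7, Zmiz1 with 6, and Arid1b, Ptk2b and Tns3 with 4 each. Gm20388, an annotated gene whose long body overlaps both Gse1 and Jph3, held 9. These counts were not set against gene length or the number of all distal summits in each gene.

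The sequence around the strongest distal summits differed from that around other distal summits, with AP-1 sites in a higher and CTCF sites in a lower share of windows. Of 25 motif features, 24 motifs and the joint presence of PU.1/ETS and AP-1, 12 were expected in at least 30 of the windows and were tested, and 6 of these passed at an adjusted p under 0.05 (50%), 5 with higher and 1 with lower shares. AP-1 sites were found in 357 windows (32.5%) against 20.2% of other distal windows. CTCF sites were found in 7 windows (0.637%) against 4.24%. Across all 58386 windows of chromosomes 1 to 19, promoters included, 17.3% held an AP-1 site and 3.63% a CTCF site. A site here is a match to the letters in the DNA, not a bound factor.

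Each autosome served as a pair for the test. The AP-1 share of the strongest summits was 16.7% on the lowest, 34.1% on the median and 40.3% on the highest autosome, against 19%, 20.2% and 21.4% at other distal summits. It was higher on 17 of 19 autosomes, with chromosomes 4 and 6 as the exceptions (mean difference 11.8 percentage points, SE 1.64, adjusted p = 3.00e-04, two-sided permutation test over 19 autosomes). The CTCF share ranged from 0% to 3.12% with a median of 0% among the strongest summits and from 2.75% to 5.68% with a median of 4.15% among the others, and it was lower on every autosome (difference -3.57, SE 0.2, adjusted permutation p = 2.40e-04). The 7 windows with a CTCF site set the precision of that share.

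**Figure D1:**
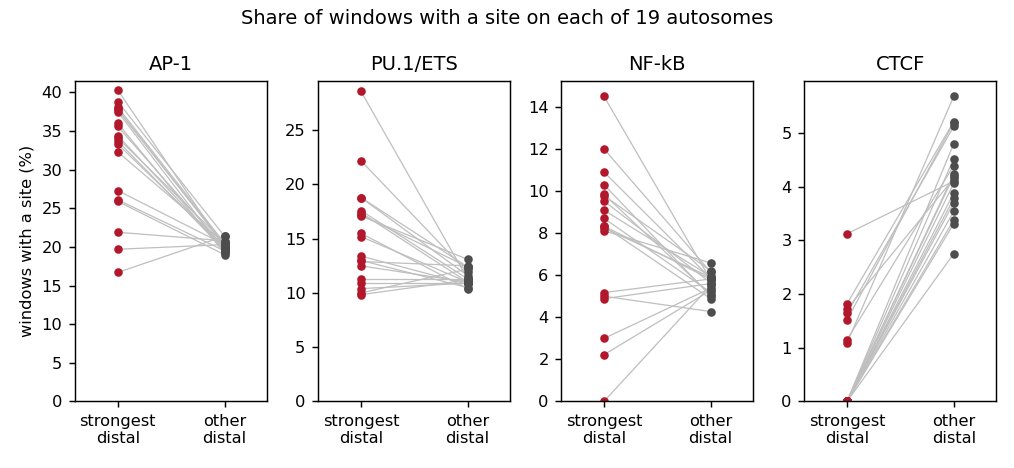
Share of 201 bp windows with a site (y axis, %) on each of the 19 autosomes for the strongest distal summits (red) and other distal summits (grey), with a line joining the values of 1 autosome. AP-1 shares fall on 17 lines going from left to right and CTCF shares increase on all 19, while PU.1/ETS and NF-kB shares spread widely among the strongest summits.

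PU.1/ETS sites were in 167 windows (15.2%) against 11.5% of other distal windows (difference 3.94 points, SE 1.07, higher on 15 of 19 autosomes, adjusted permutation p = 0.00228). The share ran from 9.84% on chromosome 7 to 28.6% on chromosome 14 with a median of 15.2%, and at other distal summits from 10.4% to 13.1% with a median of 11.3%, so the ranges overlapped. Within 50 bp of the summit the difference was -0.23 points (SE 1.11, adjusted permutation p = 0.997). Among all windows 10.1% held this site.

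MAF/NRF2 sites (TGACNNNGC), bound by MAF dimers and by NRF2 or BACH1 with small MAF proteins, were in 16% of windows against 12.6% (14 of 19 autosomes higher, adjusted permutation p = 0.011), and in 22.2% of the windows that held this site it overlapped an AP-1 site, as it did in 19.3% of such windows at other distal summits. The NF-kB motif was in 8.19% of windows against 5.61% (14 of 19, adjusted permutation p = 0.0333). The PU.1:IRF composite (GGAA and GAAA, 2 bases apart), where PU.1 binds with IRF4 or IRF8, was in 7.19% against 5.69% (14 of 19, adjusted permutation p = 0.0352). These 3 differences were less stable than those of AP-1 and CTCF. With windows weighted to the same GC content, adjusted permutation p was 0.138 for NF-kB and 0.0992 for MAF/NRF2, and without chromosome 11, which held the most of the strongest summits, it was 0.0504 for both NF-kB and PU.1:IRF.

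The motifs of other macrophage and stimulus-activated factors did not pass. C/EBP sites were in 12% of windows against 13.3% (adjusted permutation p = 0.336), RUNX sites in 10.5% against 9.6% (adjusted p = 0.336), and the IRF motif (2 copies of GAAA, 2 bases apart) in 3.46% against 4.1% (adjusted p = 0.378). STAT sites (TTCNNNGAA) were in 5.91% against 7.06% (adjusted permutation p = 0.316), and STAT6 sites (TTC and GAA, 4 bases apart) in 7.64% against 7.89% (difference -0.509 points, SE 1, adjusted p = 0.618). MEF2 sites were in 2.27% against 3.4% (adjusted permutation p = 0.0945). An adjusted p above the threshold does not show that these shares were the same.

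**Figure D2:**
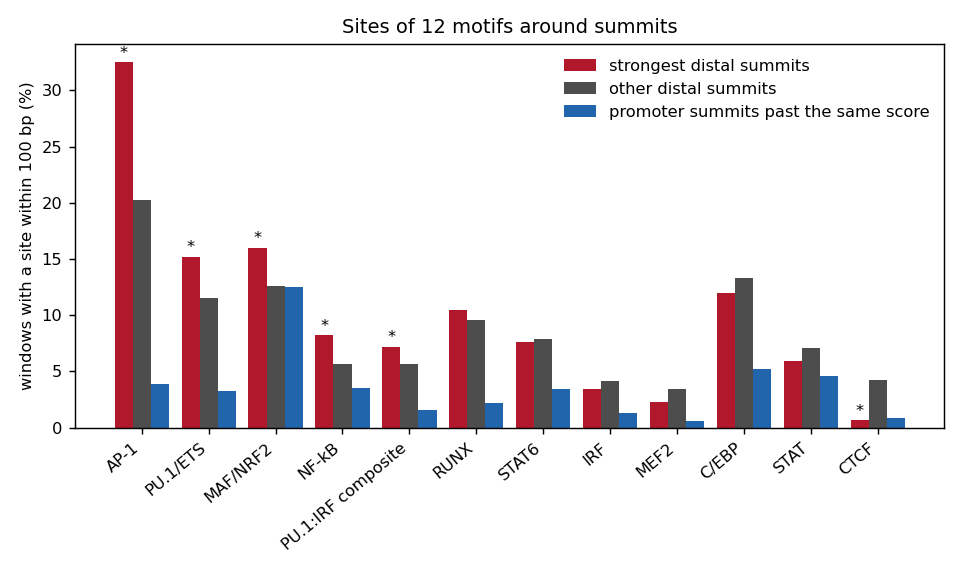
Share of windows of 201 bp with a site (y axis, %) for the 12 motifs tested against other distal summits, in the 1099 strongest distal summits (red), the other distal summits (grey) and the promoter summits with a score of 1786 or more (blue). Asterisks mark motifs with an adjusted p under 0.05 against other distal summits. AP-1 stands highest with 32.5%, and CTCF is lower in the strongest distal summits than in other distal summits.

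Among the motifs too rare for the test, the GC-box of SP and KLF factors (GGGGCGGGG) was in 31 windows (2.82%) against 0.924% of other distal windows, and CRE sites were in 13 (1.18%) against 0.497%. TEAD sites (ACATTCCA), of factors not expected in macrophages, were in 2 windows (0.182%) against 0.693%, GATA sites (AGATAAG) in 1.55% against 1.96%, and octamers of POU factors (ATGCAAAT) in 1.46% against 2.05%. Grainyhead (AACCGGTT) sites were in 2 windows, EGR (GCGTGGGCG) and MiT E-box (TCACGTGA) sites in 4 each, KLF (GGGTGTGGC) sites in 13, GC-flanked ETS (CCGGAAGT) sites in 10, and the C/EBP palindrome (TTGCGCAA) and the nuclear receptor DR1 element in 1 each. These values are given without a test.

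Some windows held more than 1 site. PU.1/ETS and AP-1 shared a window at 38 of the strongest summits (3.46%), against 1.42% of other distal windows. The product of the separate shares would give 4.94% and 2.32%, so the joint share was below the product in both groups, without a test. At least 2 AP-1 sites stood in 58 windows (5.28%) against 2.27%. None of PU.1/ETS, AP-1, C/EBP and RUNX was found in 467 windows (42.5%) against 53.9%, and 244 windows (22.2%) held none of the 24 motifs. The AP-1 share was 32.7% of 551 windows in introns and 32.4% of 500 outside coding genes, and the PU.1/ETS share was 17.6% in introns and 12.4% outside, without a test.

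The sites lay at different distances from the summit, which is the point that MACS2 gave as the highest of the signal. PU.1/ETS sites were farther from the strongest summits, with the nearest site at a median of 42.5 bp against 29.5 bp (farther on 17 of 19 autosomes, mean difference 15.8 bp, SE 3.04, adjusted p = 0.00153, permutation test over 19 autosomes and 9 motifs, with 18 autosomes for NF-kB and STAT and 17 for STAT6). At a score limit of 2000 the PU.1/ETS difference was 10.5 bp and did not pass (adjusted permutation p = 0.0646). RUNX sites were at a median of 40 bp against 37 bp over all summits, while the mean of the autosome medians was 50.7 bp against 37.9 bp (difference 12.8 bp, SE 4.32, 13 of 19, adjusted permutation p = 0.0423). That call was lost when summits near RefSeq starts were left out (adjusted permutation p = 0.0623) and for summits over 2500 bp from a start (9.21 bp, adjusted p = 0.12). For AP-1 (33 against 28 bp, adjusted permutation p = 0.0574), NF-kB (55.5 against 35.5 bp, adjusted p = 0.0502) and the other 5 motifs the difference did not pass, although that of NF-kB passed for summits over 2500 bp from a start (14.4 bp, adjusted p = 0.0391) and for unique, little masked summits (14.8 bp, adjusted p = 0.0477).

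Counted per ring around the summit, PU.1/ETS sites within 25 bp numbered 48.2 per 1000 of the strongest summits and 50.7 per 1000 other distal summits, and between 25 and 50 bp 40.9 and 39.6. Between 50 and 100 bp they numbered 73.7 and 31.5, and between 100 and 200 bp 42.8 and 15.4. The surplus of PU.1/ETS sites thus lay beyond 50 bp. NF-kB sites numbered 27.3 and 24.5 per 1000 within 25 bp and 13.6 and 19.5 between 25 and 50 bp. Between 50 and 100 bp they numbered 55.5 and 25.2, so the NF-kB surplus lay mainly beyond 50 bp, without a test. AP-1 sites were more frequent in every ring, with 127 against 92.5 per 1000 within 25 bp, 121 against 72.5 between 25 and 50 bp and 140 against 62.8 between 50 and 100 bp. CTCF sites gathered under other distal summits (26.9 per 1000 within 25 bp) and numbered 1.82 per 1000 under the strongest.

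Peak width moved with this result. All 226 PU.1/ETS sites within 200 bp of the strongest summits lay inside the reference peak, as did 90% of those around other distal summits, and for AP-1 the shares were 99% and 88.3%. The reference peaks were also wider at the strongest summits, as given above, and the part of that width in the distances was not tested.

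**Figure D3:**
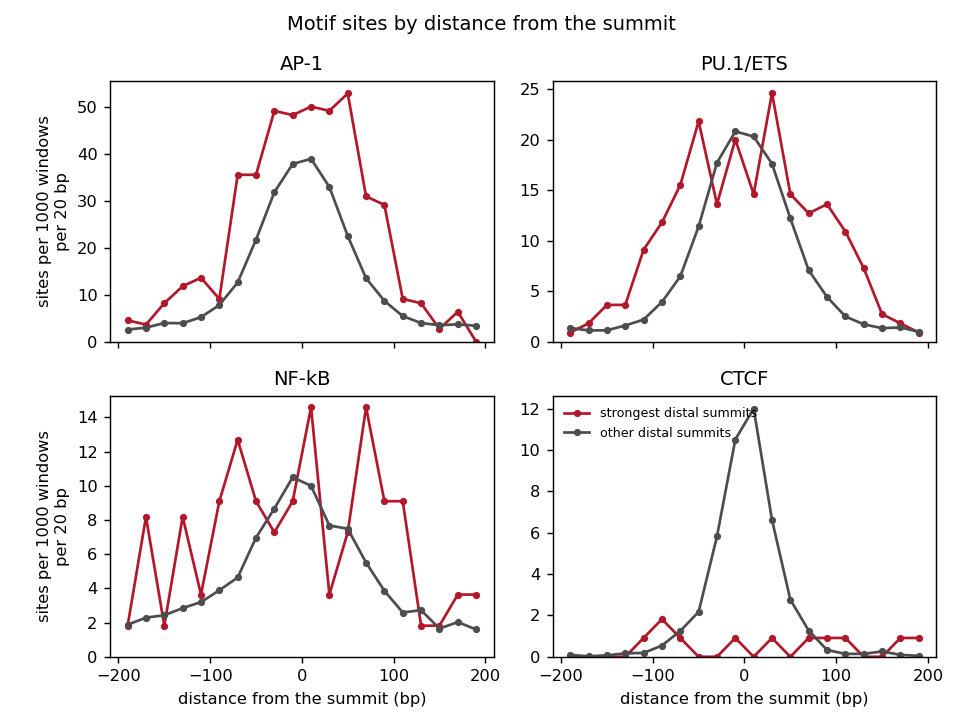
Motif sites per 1000 windows in bins of 20 bp (y axis) by distance of the site from the summit (x axis, bp, left and right as on the plus strand) for the strongest distal summits (red) and other distal summits (grey). PU.1/ETS sites of the 2 groups reach similar levels at the summit and part beyond 50 bp, AP-1 sites are higher at the strongest summits in every bin within 100 bp of the summit, and CTCF sites peak under other distal summits.

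By score, the AP-1 share of distal summits was 21% in the lowest of 5 about equal bands of the other distal summits (scores 102 to 439), 16.4% in the next, then 17.5%, 20.1% and 25.5%, and 31.9%, 34.3% and 31% in the lower, middle and top bands of the strongest summits. The CTCF share was highest in the second of these 5 bands (6.75%) and went down from there to 1.73% in the highest. It was 0.429%, 1.33% and 0% in the lower, middle and top bands of the strongest summits, with 3, 4 and 0 windows holding a site. PU.1/ETS shares went from 7.61% in the lowest band to 14.6% in the highest of the other distal summits, and were 15.2%, 16.7% and 11% in the bands of the strongest summits. NF-kB sites were about as frequent in the lowest band (7.73%) as among the strongest summits (8.19%). Because the bands are cut from the score that chose the summits, and tied scores were split between neighboring bands of the strongest summits, these shares were not tested.

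**Figure D4:**
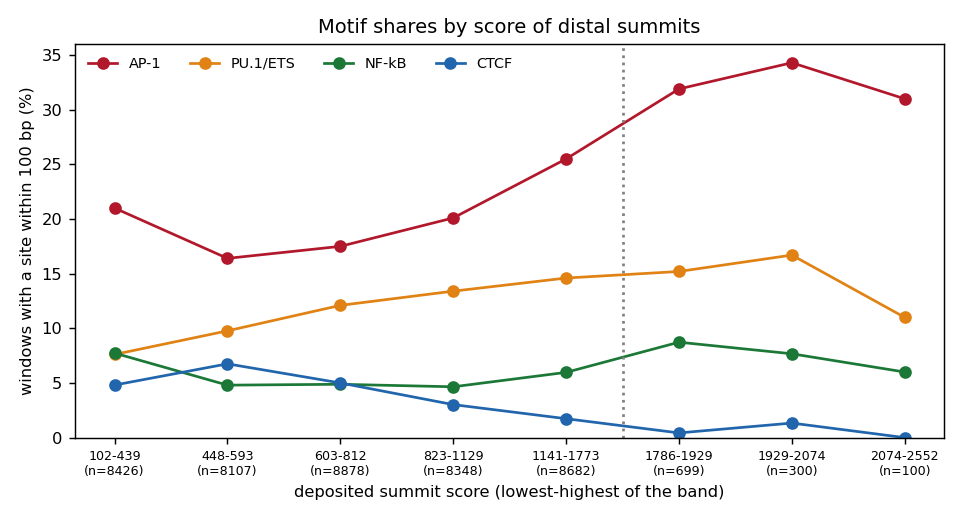
Share of 201 bp windows with an AP-1, PU.1/ETS, NF-kB or CTCF site (y axis, %) by band of the deposited summit score (x axis, lowest to highest score of each band and number of summits). The dotted line is the score limit of 1786, with 5 bands of other distal summits to its left and 3 bands of the strongest summits to its right. AP-1 reaches 34.3% right of the line, where CTCF stands at 0.429%, 1.33% and 0%.

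Words of 7 bases were counted next, without a list of motifs. Of 2683 words frequent enough to test, 123 were more frequent around the strongest summits (4.58% of those tested) and 213 were less frequent (7.94%). The most frequent of the higher words was CTTCCTC, in 35.9% of windows against 25.1% (all 19 autosomes, adjusted permutation p = 0.00233), followed by the AP-1 word TGACTCA. The next were ACTTCCT (30.6% against 25.7%), CACTTCC (28% against 18.6%), AGAGGAA (27.8% against 21.5%) and CAGGAAG (25% against 19.3%), and then AGGAAGC (21.7% against 14.9%), AAGAGGA (19.8% against 15.1%), GGAGGAA (19.3% against 13.4%) and AGGAAGG (19% against 13.1%). Of these 10 words, all but TGACTCA and AAGAGGA hold the ETS core GGAA on either strand.

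The core GGAA was in 22 of the 123 higher words (17.9%) and in 14 of the 213 lower words (6.57%), beside 152 of all 2683 tested words (5.67%). Words can be shifted readings of the same sequence, such as ACTTCCT and CACTTCC, so these counts are not of separate results. The lower words with the core included AAAGGAA (8.28% against 11.3%, adjusted permutation p = 0.0106), AAGGAAA (6.55% against 9.66%, adjusted p = 0.0355) and, chosen after its values were seen, TCTGGAA (3.73% against 6.08%, adjusted p = 0.00958). The other lower words of highest frequency were AGAGAAA (6.28% against 9.68%), CAGAAGA (6.19% against 8.74%) and AAAAGGA (5.46% against 7.92%). The highest ratio belonged to the GC-rich words CCCGCCC (7.73% against 2.87%, all 19 autosomes, adjusted permutation p = 0.00233) and CCCCGCC (6.92% against 2.64%), parts of the GC-box. With windows weighted to the same GC content 50 words passed in all, and within 50 bp of the summit 20 did, so the word counts depended on composition and on the window.

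Base composition differed on every autosome. GC content averaged 52.7% ± 6.29 (SD, n = 1099) against 48.2% ± 6.22, with autosome means from 50.7% to 55.4% that did not overlap with those of other distal summits, from 47% to 49.3% (adjusted permutation p = 2.00e-05). CpG dinucleotides numbered 4.09 per window against 2.64, and repeat-masked bases made up 8.3% against 15.2% (both adjusted permutation p = 2.00e-05, autosome values without overlap). This p is close to the smallest the resampling can give, 1.00e-05. The central 38 bases occurred more than once in the genome at 20 of the strongest summits (1.82%) against 2.7%, and no window held a 24-base stretch of the mitochondrial genome.

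A small share of the windows had the composition of CpG islands, with over 50% GC and an observed to expected CpG ratio over 0.6. They numbered 83 (7.55%), against 2.13% of other distal windows and 81.2% of the promoter windows past the same score. Of these 83, 6 held an AP-1 site (7.23%), 3 a PU.1/ETS site (3.61%) and 16 a GC-box (19.3%), and 14 lay within 1000 bp of a RefSeq transcript start. Among the 1016 remaining windows 34.5% held an AP-1 site, 16.1% a PU.1/ETS site and 1.48% a GC-box. In all, 60 of the strongest summits (5.46%) lay within 1000 bp of a RefSeq start although none lay so near a GENCODE start, against 3.17% of other distal summits, and leaving out all summits near RefSeq starts changed none of the 6 motif calls against other distal summits.

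The strongest distal summits were also compared with promoter summits past the same score. Promoters made up most of the highest scores, since 2907 of 4085 autosomal summits at 1786 or above (71.2%) lay within 1000 bp of a start, and 2783 of these had fewer than 5 peaks in their extended region. Of 12 motifs tested between the strongest distal and these promoter summits, 11 passed (91.7%). AP-1 sites were in 32.5% of distal against 3.88% of promoter windows, PU.1/ETS sites in 15.2% against 3.23%, RUNX sites in 10.5% against 2.16% and the PU.1:IRF composite in 7.19% against 1.55% (each higher on 19 of 19 autosomes, adjusted permutation p = 4.00e-05). C/EBP (12% against 5.25%, adjusted permutation p = 6.86e-05), NF-kB (8.19% against 3.56%, adjusted p = 9.00e-05), STAT6 (7.64% against 3.45%, adjusted p = 0.00618) and MAF/NRF2 (16% against 12.5%, adjusted p = 0.0221) were higher as well.

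GC-boxes were in 22.3% of promoter windows against 2.82% and GC-flanked ETS sites, the form bound at promoters by GABPA and related factors, in 6.04% against 0.91% (both adjusted permutation p = 4.00e-05), and CRE sites in 3.41% against 1.18% (adjusted p = 0.00305). STAT sites did not pass (adjusted permutation p = 0.262). CTCF sites, too rare to test here, were in 0.826% of promoter windows and 0.637% of distal windows. With windows weighted to the same GC content, C/EBP (adjusted permutation p = 0.131), STAT6 (adjusted p = 0.862) and MAF/NRF2 (adjusted p = 0.0623) were among the motifs that no longer passed.

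Position relative to genes gave no difference that passed the test. Introns of coding genes held 551 (50.1%, against 51.7% of other distal summits), 500 lay outside coding genes (45.5% against 44%), 36 in untranslated exons (3.28% against 3.08%) and 12 in coding exons. None of 5 position features passed the permutation test (adjusted p = 0.719 for each, and 0 of the 5 had an unadjusted p under 0.05). The difference in the intron share was -0.904 points with an SE of 1.72. The median distance to the nearest start of a coding transcript was 13812 bp against 14767 bp.

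The strongest distal summits lay on all 19 autosomes, 32 to 92 on each. They made up 2.52% ± 0.322 (SD, n = 19) of an autosome's distal summits, from 1.85% on chromosome 13 to 2.97% on chromosome 11. Another summit of the group lay within 50000 bp of 250 of them (22.7%), and 14.3% of other distal summits had such a neighbor. The extended region held 1 reference peak in 601 cases (54.7%), 2 in 299, 3 in 133 and 4 in 66. The AP-1 share was 31.3%, 34.8%, 29.3% and 39.4% in these classes, and the NF-kB share 6.99%, 8.03%, 10.5% and 15.2%, again without a test.

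Genes near the strongest distal summits were counted from short lists, within 50000 bp of a gene's most upstream start. Of all 20807 autosomal coding genes, 1474 (7.08%) had such a summit. The share was 25% for genes of the IL-4 response (5 of 20), 24% for macrophage identity (6 of 25), 23.5% for lysosome and phagocytosis (4 of 17), 16% for the LPS response (4 of 25), and 30.8% for genes active in all cells (4 of 13). The order of the lists depended on the distance, since within 20000 bp the share was 23.5% for lysosome and phagocytosis, 20% for the IL-4 response, 15.4% for all cells, 12% for the LPS response, 8.33% for lymphocyte genes, 8% for macrophage identity and 2.91% for all coding genes. Within 50000 bp it was 8.33% for lymphocyte genes (1 of 12), 9.09% for neutrophil, mast cell and erythroid genes (1 of 11), 3.45% for genes of other tissues (1 of 29), and 0 of 12 for fibroblast and other stromal genes. Within 100000 bp the shares were 38.5% for all cells, 29.4% for lysosome and phagocytosis, 28% for both macrophage identity and the LPS response, 25% for both the IL-4 response and lymphocyte genes, 36.4% for neutrophil, mast cell and erythroid genes, 10.3% for other tissues, 8.33% for fibroblast and other stromal genes and 13.5% for all coding genes. A near start does not name the gene a distal region acts on, and the lists also differ in how many genes had any distal summit nearby, 74.6% of all coding genes against 100% of the LPS, macrophage, lysosome and lymphocyte genes.

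**Figure D5:**
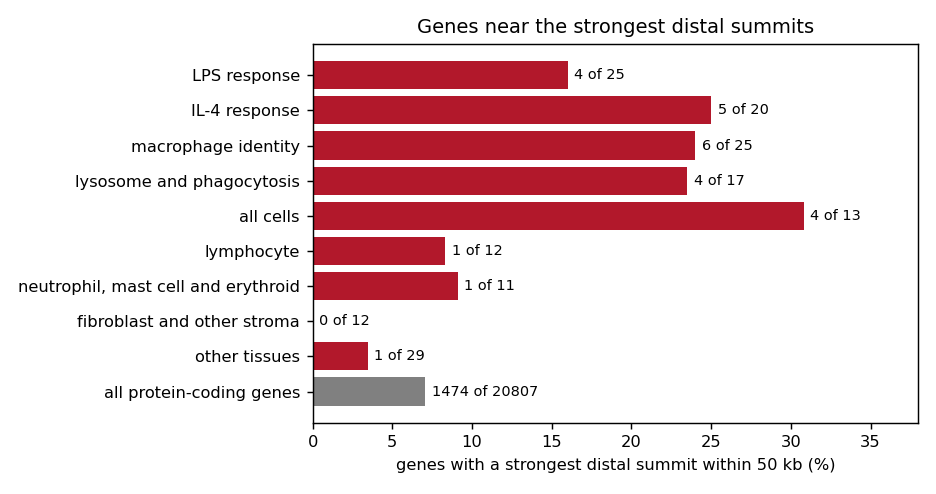
Percent of the genes of each list (y axis) that had a strongest distal summit within 50 kb of their most upstream start (x axis), with the number of genes beside each bar. The grey bar is all autosomal protein-coding genes (7.08%), and the bars of all lists but fibroblast and other stroma and other tissues are longer than it.

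Near genes of the IL-4 response, the highest scored was in an intron of Tgm2, a transglutaminase induced in alternatively activated macrophages (score 2087, chr2:158133022-158133541, 13140 bp into the gene). Il4ra had a summit of score 1903 in an intron, 3530 bp from its start. A summit 14420 bp from the start of Myc, a growth regulator, held the PU.1:IRF composite (score 1955), and the one 30822 bp from Socs1 had 2061.

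Among genes of the LPS response, Socs3 had summits of scores 1864 and 1942, 7987 and 23307 bp from its start, and the nearer one is printed above. Tnf, which encodes the inflammatory cytokine TNF, had a summit 16697 bp upstream with an NF-kB site and a score of 1799, near the limit. Marcksl1 (1864, 17650 bp upstream, a C/EBP site) and Acod1, the enzyme that makes itaconate (1851, 39011 bp upstream), were the other genes of that list. Il1b was just past the distance, with a summit 50982 bp from its start that held an AP-1 site.

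Macrophage identity genes with a summit were Cx3cr1 (1864, 10989 bp into the gene, 1 of 3 in its body), Adgre1, which encodes F4/80 (1825, 11503 bp upstream), Csf1r, the receptor for the growth factor M-CSF (1812, in an untranslated exon 20129 bp from its most upstream start, an AP-1 site), Cd68, Runx1 and Cebpb. The summit counted for Cd68 lay in an intron of another gene, Tnfsf12, and that counted for Cebpb lay in Tmem189, 39471 bp from the Cebpb start, with an AP-1 site and a score of 1929. Of the lysosomal genes, Hexa had an intronic summit of score 2074, Lipa, lysosomal acid lipase, had 1851 with a PU.1/ETS site and Ctsd, cathepsin D, had 1903 with a PU.1/ETS site. Among genes active in all cells, Actb had a summit of 2179 with an AP-1 site 14168 bp upstream, and Tubb5 and Eef1a1 each had one with an AP-1 site. Outside these classes stood single summits near Gata3 (1851), Mpo (1942, 43931 bp from its start) and Vil1 (2034).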

How the data were processed

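Male wild type BMDMs gave 18 single-end ATAC-seq libraries of 76 bases. Per the study's methods, the authors trimmed reads with BBDuk and Trimmomatic 0.39, mapped them to mm10 with ShortStack, handled alignments with SAMtools 1.9 and called peaks and summits with MACS2 2.2.6. No shift of reads for the Tn5 cut is named there, and such a shift would move a summit by a few bases. Peaks were pooled into 1 catalog of 82391 reference peaks, 59617 extended regions and 84660 summits. The deposited score in the fifth column of the summits is used as given, and its scale is not given in the sources used here. The tables hold no counts or depth, and 0 columns of other samples were met.

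Positions were compared with GENCODE M21 and with RefSeq on GRCm38.p6, whose primary coordinates are those of mm10. The members, motifs and gene lists were chosen with earlier results of these data known. Motifs (24, both strands) and 7-base words (8192, counted with their reverse complements) were searched within 100 bp of each summit. Each feature's share was compared per autosome between groups by a two-sided permutation test that flipped the sign of the paired differences (19, or fewer for a distance where an autosome had no member with the site) (100000 resamples), with Benjamini-Hochberg adjustment over the features tested in that comparison and a threshold of 0.05. Autosomes are not biological replicates, so p measures the spread between chromosomes of 1 catalog. Features expected in fewer than 30 members were not tested, a filter set after simulated data had shown false calls among rare words. The regions named are the 15 highest scored, 3 on either side of the score limit and, near listed genes, the nearest and the highest scored. Some regions that this rule names are not reported here. Scripts were tested on simulated data and used Python 3.11.15, NumPy 2.4.6 and pandas 2.3.3. Of 169 listed genes, 164 lay on chromosomes 1 to 19. Alternatives were other limits on score, distance and peak number, windows of 50 and 200 bp, summits whose central 38 bases are unique and whose window is under 50% repeat-masked, GC bins of 5 percentage points, leaving out chromosome 11, 6-base words and, added after the data were seen, RefSeq starts.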

Additional observations from a re-analysis of the deposited data

How the results depend on the processing

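No paired analysis was possible because the deposited tables pool all libraries and carry no replicate columns. The number of strongest distal summits was 2583 with a score limit of 1600 and 222 with a limit of 2000. At a limit of 2000, where fewer features reached the expected 30 windows, 1 motif passed against other distal summits, 1 against promoter summits, 4 words of 7 bases and 0 motif distances. Near genes, that limit left 0 of the LPS list, 2 of the IL-4 list, 0 of macrophage identity, 2 of lysosome, 2 of all cells, 0 of lymphocyte, 0 of neutrophil, mast cell and erythroid, and 307 of all coding genes. Within 50 bp of the summit 3 motifs passed against other distal summits and 4 against promoters, and 20 words. The PU.1/ETS difference reversed there to -0.23 points and that of the word ACTTCCT to -0.36 points. The ring counts of PU.1/ETS place its surplus beyond 50 bp, and for ACTTCCT the cause was not tested. The other 5 that reversed passed in neither setting. At a score limit of 2000 they were the share within 5000 bp of a start (-1.28 points), the distance to a coding start (430 bp), and the distances of PU.1:IRF (-2.57 bp) and MAF/NRF2 sites (-4.61 bp), and with RefSeq starts the distance of PU.1:IRF sites (-0.316 bp), and the cause was not tested. The number of words was 214 for summits over 2500 bp from a start, 1348 in windows of 200 bp, 50 within GC bins and 637 with words of 6 bases, which are other features. Within GC bins 7 motifs passed against promoters. With RefSeq starts, 1 motif distance passed. Within 20000 bp, 2 macrophage genes, 2 genes of all cells, 0 neutrophil, mast cell and erythroid genes and 606 of all coding genes had a summit. Within 100000 bp these were 7 LPS, 3 lymphocyte, 4 neutrophil, mast cell and erythroid, 1 fibroblast, 3 other tissue and 2799 of all coding genes. The NF-kB difference also missed the threshold over 2500 bp from a start (adjusted permutation p = 0.0516), and that of MAF/NRF2 within 50 bp (adjusted p = 0.18), while the distance of PU.1/ETS sites did at a score limit of 2000 (adjusted p = 0.0646). Of the single values recomputed, 249 kept their direction and side of the threshold, 50 no longer passed, 2 newly passed (the distance of NF-kB sites in both cases) and 7 reversed. AP-1 and CTCF kept their direction and passed under each alternative in which they were tested. Depth is unknown, which leaves the error of each score unknown.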
